A study of Rattus norvegicus with 12 samples.

Results

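The genes described here carry out glucose uptake, glycolysis, lactate handling and glycogen turnover in rat heart. They form a list of 34 gene symbols, and a member is the probe set that the array's annotation pairs with that symbol alone, with the highest mean signal where a gene has several. Of the 34 genes, 33 had such a probe set, among 10411 genes on the array. Pkm, the muscle pyruvate kinase, had a probe set annotated with several symbols and was not used, and Gapdh was on the array only as a control. Of the remaining 32 members, 30 had a signal above their array's 40th percentile (447.9 to 514.8) in at least 3 arrays and were tested. Aldoc, the brain aldolase, and Phkg1, the catalytic subunit of muscle phosphorylase kinase, lay below that limit on nearly every array and were not tested. Among the 30, Eno2 and Pfkfb1 exceeded it on 6 arrays, Slc16a3 on 9, Pfkfb2 on 11, and the others on all 12.

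The arrays came from 12 rats in 4 groups of 3. In the IR groups (for ischaemia and reperfusion) the LAD (left anterior descending) coronary artery, which feeds the front of the left ventricle, was occluded for 30 min and then reperfused, and tissue was taken after 2 d (replicates 69, 73 and 76) or 7 d (replicates 44, 47 and 48). Sham rats had the surgery with an open LAD and were sampled after 2 d (replicates 71, 72 and 74) or 7 d (replicates 80, 81 and 82). Numbers 44 to 48 of the 7 d IR group are well below all the rest, which run from 69 to 82; whether these 3 were operated on or processed separately is not stated, so that any such difference cannot be told apart from the 7 d IR group. All 12 rats were operated on, and no unoperated heart served as a reference. The labels call the samples rat heart, and that of 1 sample names the ventricle; the sources used here do not state strain, sex, age, the region of the wall or whether tissue was pooled. The p-values measure the spread between these 12 samples.

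Glucose enters heart muscle cells through the insulin-responsive transporter GLUT4 (Slc2a4) and the basal transporter GLUT1 (Slc2a1), is trapped by hexokinase, and is either stored as glycogen or split by glycolysis to pyruvate and lactate. Several steps are run by a pair of isoforms encoded by separate genes, a muscle form that adult heart and skeletal muscle make in quantity and a ubiquitous form found in most cells, including white blood cells and fibroblasts. The adult heart draws most of its energy from fatty acids, and a shift towards glucose use and towards ubiquitous isoforms is known from fetal and overloaded hearts.

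The pairs Pgam2 and Pgam1 (phosphoglycerate mutase) and Eno3 and Eno1 (enolase) separated muscle from ubiquitous isoforms on both days, as did Pfkm and Pfkp (phosphofructokinase). The 250 bases before the annotated starts of the first 4 genes are printed here from RefSeq (assembly GRCr8), chosen because these 4 promoters differ in their short motifs. They lie at chr14:84897875-84898124 on the minus strand for Pgam2, chr1:250672902-250673151 on the plus strand for Pgam1, chr10:55868936-55869185 on the plus strand for Eno3 and chr5:166002617-166002866 on the plus strand for Eno1. Each is written 5′ to 3′ along its gene's strand, and capitals mark matches on either strand to the hypoxia-response core (ACGTG or GCGTG), the TATA box (TATAAA), the muscle MCAT element (CATTCC) or the GC box (GGGCGG), with overlapping matches each counted.
Pgam2: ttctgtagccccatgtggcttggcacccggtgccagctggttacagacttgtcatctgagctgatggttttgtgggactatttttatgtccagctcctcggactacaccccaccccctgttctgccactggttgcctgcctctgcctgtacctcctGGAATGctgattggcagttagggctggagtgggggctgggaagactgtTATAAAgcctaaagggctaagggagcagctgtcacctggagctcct
Pgam1: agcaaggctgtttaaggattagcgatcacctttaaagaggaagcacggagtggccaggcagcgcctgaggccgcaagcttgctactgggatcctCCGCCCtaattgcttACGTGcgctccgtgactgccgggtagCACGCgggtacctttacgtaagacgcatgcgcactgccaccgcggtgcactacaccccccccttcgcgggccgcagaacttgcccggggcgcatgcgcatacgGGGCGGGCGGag
Eno3: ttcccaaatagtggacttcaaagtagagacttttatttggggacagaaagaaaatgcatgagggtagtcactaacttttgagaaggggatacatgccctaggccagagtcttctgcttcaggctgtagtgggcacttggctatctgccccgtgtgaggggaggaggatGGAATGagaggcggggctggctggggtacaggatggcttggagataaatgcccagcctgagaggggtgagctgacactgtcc
Eno1: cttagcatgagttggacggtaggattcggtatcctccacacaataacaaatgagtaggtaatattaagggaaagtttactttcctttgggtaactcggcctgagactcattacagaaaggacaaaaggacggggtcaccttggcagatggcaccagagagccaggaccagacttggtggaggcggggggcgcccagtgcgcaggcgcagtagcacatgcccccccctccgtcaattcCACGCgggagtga
Pgam2 held a TATA box whose first base lay 46 bases before the start and an MCAT element 94 bases before it, and Eno3 held an MCAT element 82 bases before it. Pgam1 held 2 hypoxia-response cores and 3 GC boxes, and Eno1 held 1 hypoxia-response core. The third pair, not printed, did not share this split. Pfkm held 1 hypoxia-response core and no MCAT element or TATA box, and Pfkp held 1 hypoxia-response core and 2 GC boxes. Promoters of 32 of the 34 members were matched by symbol; Slc2a4 and Pgk1 had no entry. The hypoxia-response core was present in 21 of the 32 and in 37.9% of all 27457 promoters of the same length, the GC box in 18 (32.4% of all), the MCAT element in 4 (11.8% of all) and the TATA box in 3 (13.1% of all). The 4 promoters with an MCAT element were those of Pgam2, Eno3, Gapdh and Slc16a3. A match is a description of the letters in this window and says nothing of which factor bound in these hearts.

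The samples carried the markers of heart muscle: all 15 cardiomyocyte markers were measured, whereas 7 of the 10 skeletal muscle markers on the array, among them Myh2, Myh4 and Actn3, stayed below the limit. The other 3, Myh1, Atp2a1 and Ckm, passed it. Myh1 and Ckm were called lower at 7 d (log2 change -0.47 and -0.60, adjusted p = 0.01955 and 0.0109) and on average (-0.35 and -0.54). Summed over the 15 cardiomyocyte markers, the signal was 682564 to 765646 in 2 d sham, 507773 to 674115 in 2 d IR, 648065 to 750511 in 7 d sham and 481064 to 542875 in 7 d IR hearts. The summed signal of 12 macrophage and monocyte markers was 41243 to 61006, 92677 to 132983, 43220 to 73264 and 97740 to 115888 in the same order of groups. Of the 15 cardiomyocyte markers 1 was called lower at 2 d, 8 at 7 d and 13 on average over the days. Of the 12 macrophage and monocyte markers 9 were called higher on each day and 12 on average. At 7 d, 7 of 10 fibroblast markers were called higher, as were 2 of 6 smooth muscle and pericyte markers and 1 of 3 neutrophil markers. Of 4 atrial markers 1 was called lower at 7 d (Myl7, log2 change -1.75, adjusted p = 0.0366) and 2 on average (Myl7 and Nppa, -1.21 and -0.54); their summed signal was 20690 to 41563 in 2 d sham, 14182 to 20460 in 2 d IR, 41694 to 54884 in 7 d sham and 24972 to 49277 in 7 d IR hearts. The part of these markers in the members' values was not tested. In bulk tissue, fewer cells of a type and less RNA per cell cannot be told apart. Of the 12 arrays 2 lay away from the others of their group. Relative to the 2 d sham mean, the mean log2 level of the cardiomyocyte markers was -0.581 on 2 d IR replicate 69 and -0.139 and -0.266 on replicates 73 and 76, and on 7 d sham replicate 82 the fibroblast markers lay -0.608 from the mean of their group.

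After reperfusion Pgam2 and Slc2a4 were called lower than in sham hearts at 2 d, and Pgam2, Pfkm, Eno3, Tpi1, Ldhb and 5 of 7 glycogen enzymes at 7 d, while no member was called higher in any comparison. Calls rest on limma's adjusted p under 0.05 over all 10527 probe sets tested. At 2 d, 2 of 30 members were called, both lower (Pgam2 and Slc2a4), where 2.47% of all probe sets were called, 1.88% higher and 0.589% lower. At 7 d, 10 of 30 were called, all lower, where 12.1% of all probe sets were called, 6.22% higher and 5.84% lower. In the average of the 2 d and 7 d effects, which uses the same 12 arrays, 13 of 30 were called, all lower, against 22.9% of all probe sets, 12.4% higher and 10.5% lower. The median log2 change of the 30 members was -0.21 at 2 d, -0.31 at 7 d and -0.27 on average, beside 0.0031, 0.0073 and 0.0055 over all probe sets. The change was below 0 for 21, 23 and 23 of the 30. The 15 cardiomyocyte markers had medians of -0.35 at 2 d, -0.42 at 7 d and -0.38 on average, with 1, 8 and 13 called lower. Their part in the change of the members was not tested.

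Counted by array rather than by test, all 3 IR hearts lay below all 3 sham hearts for 13 members at 2 d and 18 at 7 d, where 12.5% and 15.8% of all probe sets did so. On both days 11 members were lower in this sense, as were 5.85% of all probe sets: Slc2a4, Hk1, Pfkm, Aldoa, Pgam2, Eno3, Ldha, Ldhb, Pygb, Gys1 and Pgm1. In the opposite direction 3 members stood apart at 2 d (Pfkp, Eno1 and Slc16a3) and 1 at 7 d (Pfkl), against 13.9% and 16.6% of all probe sets, and no member was higher on both days, against 6.14%.

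The counts on single days depended on single arrays. At 2 d the count of 2 fell to 0 when any of the sham replicates 71, 72 and 74 or IR replicate 69 was dropped, and also for the 7 d hearts 47 and 48, which enter only through the shared spread. It was 1 when 2 d IR replicate 76 or 7 d sham replicate 81 was dropped, 4 when replicate 82 was dropped and 6 when replicate 73 was dropped. The share of all probe sets called at 2 d moved too, to 0.019% without 69, 71 or 72, 0.95% without 74, 4.76% without 82 and 4.89% without 73. At 7 d the count of 10 was 0 when sham replicate 82 was dropped, 2 when IR replicate 44 was dropped, 4 for sham replicate 81 and 6 for IR replicate 47 or 48, while 1.66%, 4.5%, 9.29%, 4.77% and 8.48% of all probe sets were called without 82, 44, 81, 47 and 48. Of the 12 fits with an array left out, the 7 d call was kept in 3 for Eno3 and Tpi1 and in 4 for Pygb. The average effect gave 10 to 15 called members whichever array was left out, and 10 of the 13 kept their call in all 12 such fits; the others were Ldha, Pgk1 and Tpi1. Without both of these arrays that lay away from their groups, 2 d IR replicate 69 and 7 d sham replicate 82, the counts were 0 at 2 d, 2 at 7 d (Pgam2 and Gys1) and 6 on average (Pgam2, Slc2a4, Gys1, Pfkm, Pygm and Ldhb).

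**Figure D1:**
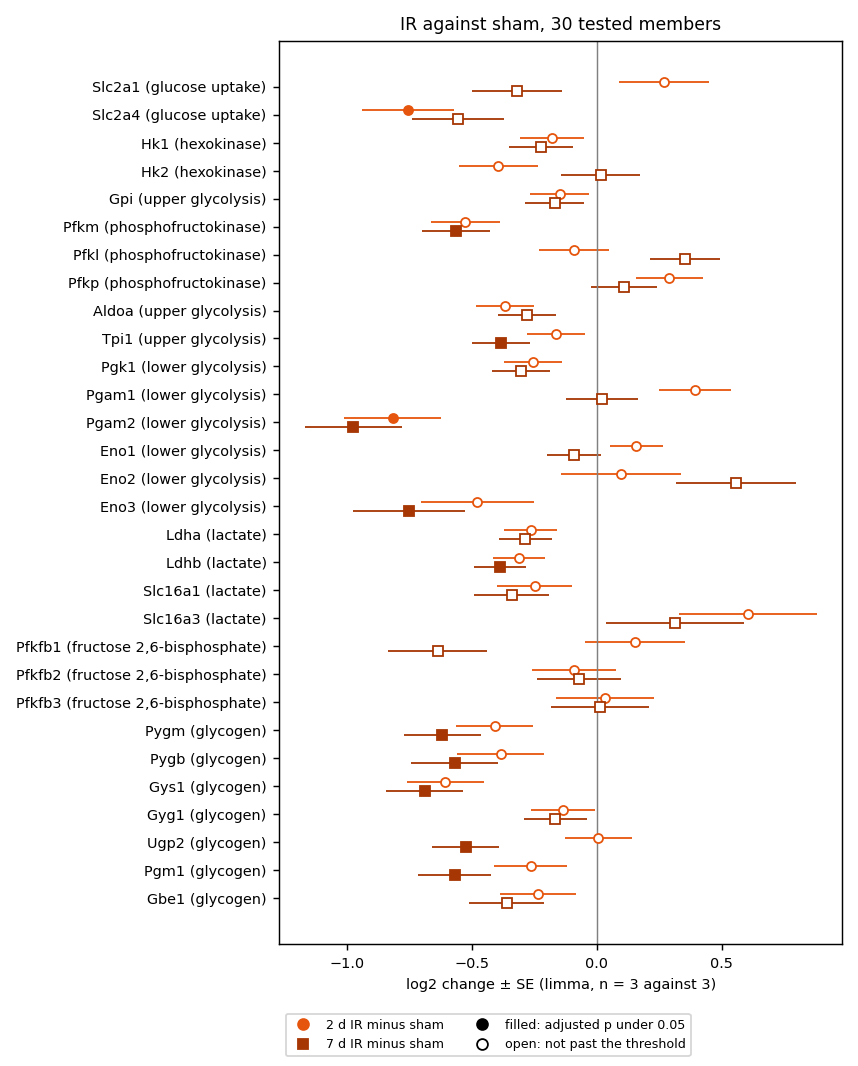
Log2 change of each of the 30 tested members in IR against sham hearts (x axis, log2 units, limma estimate ± SE, 3 against 3 arrays), ordered by step of the pathway, with circles for 2 d and squares for 7 d. Filled symbols passed the threshold: Pgam2 and Slc2a4 at 2 d and 10 members at 7 d, all to the left of 0.

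Of the glucose transporters Slc2a4 fell, while Slc2a1 did not pass the test on either day. Slc2a4 signals at 2 d were 8823, 9314 and 9149.8 in the sham hearts and 3720.4, 5860.4 and 6854 in the IR hearts. Every IR heart lay below every sham heart, and replicate 69 was lowest; Slc2a4 fell 1.69-fold (log2 change -0.75, SE 0.18, adjusted p = 0.0448). At 7 d Slc2a4 read 7062, 7687 and 10322 in the sham hearts and 5299, 5804 and 5576.5 in the IR hearts. The groups again stood apart, but the test did not pass (log2 change -0.55, SE 0.18, adjusted p = 0.0635); averaged over the days Slc2a4 was 1.57-fold lower (log2 change -0.65, SE 0.13, adjusted p = 0.00375). Leaving out replicate 69 gave -0.51 at 2 d (adjusted p = 0.21), and a dimmer second probe set of Slc2a4 gave -0.64 at 2 d (adjusted p = 0.0512) and -0.49 on average (adjusted p = 0.00842). For Slc2a1, GLUT1, the 2 d signals were 801, 1280.5 and 1319 in the sham hearts and 1842, 1207 and 1165 in the IR hearts. Here the groups overlapped, with replicate 69 highest and sham replicate 71 lowest (log2 change 0.27, SE 0.18, adjusted p = 0.418). At 7 d Slc2a1 was 1833, 1591 and 1543 in the sham hearts and 1295, 1301 and 1265 in the IR hearts. All 3 IR hearts then lay below the sham hearts without passing the test (log2 change -0.32, SE 0.18, adjusted p = 0.268), so that the estimates had opposite signs on the 2 days; the difference between the days did not pass either (log2 change -0.59, SE 0.25, adjusted p = 0.642).

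Hexokinases, which trap glucose in the cell, were not called. Hk1, the ubiquitous form, ranged from 5109 to 5340.5 in 2 d sham and 3929 to 5005 in 2 d IR hearts, and from 4815 to 5316 in 7 d sham and 3604 to 4723.5 in 7 d IR hearts. It stood below sham on both days, uncalled (log2 -0.18 and -0.22, adjusted p = 0.453 and 0.277). Of 3 Hk1 control probe sets on the array, the middle one also read below sham at 7 d (-0.14), while the 3′ and 5′ ones read above it (0.20 and 0.25), none called. Hk2, the insulin-responsive form, differed from sham by -0.39 at 2 d (adjusted p = 0.165) and by 0.02 at 7 d (adjusted p = 0.958).

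Phosphofructokinase, the committed step of glycolysis, has a muscle (Pfkm), a liver (Pfkl) and a platelet (Pfkp) subunit, of which Pfkm alone was called, at 7 d and on average. At 2 d Pfkm signals were 17898, 21016 and 18679 in the sham hearts and 11311, 14473 and 14216 in the IR hearts. The groups did not overlap, and the change missed the threshold (log2 change -0.52, SE 0.14, adjusted p = 0.054). At 7 d Pfkm was 15261, 17641 and 19930.2 in the sham hearts and 10378, 13654 and 11547 in the IR hearts, a difference of 1.48-fold (log2 change -0.56, SE 0.14, adjusted p = 0.0189) with the groups apart. The average effect was -0.54 (adjusted p = 0.00248), and a second probe set gave -0.57 (adjusted p = 0.0159) but did not pass at 7 d (-0.41, adjusted p = 0.235). Pfkp signals at 2 d were 1182, 1189 and 1332 in the sham hearts and 1666, 1617.5 and 1385 in the IR hearts. All 3 IR hearts lay above the sham hearts, but Pfkp was not called (log2 change 0.29, SE 0.13, adjusted p = 0.221). At 7 d Pfkp was 1223.5, 1462 and 1202 in the sham hearts and 1429, 1211.5 and 1611 in the IR hearts and the groups overlapped (log2 change 0.11, SE 0.13, adjusted p = 0.636). Pfkl differed from sham by -0.09 at 2 d (adjusted p = 0.768) and by 0.35 at 7 d (adjusted p = 0.114), when its signal was 1538 to 1669 in sham and 1919 to 2424 in IR hearts.

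The PFKFB enzymes make and degrade fructose 2,6-bisphosphate, an activator of phosphofructokinase, and 3 of them were tested. None was called. Pfkfb1 had the lowest value at 7 d, where the IR hearts read 355, 303 and 272 and the sham hearts 677, 538 and 557 without overlap (log2 change -0.64, SE 0.20, adjusted p = 0.0502); these IR signals were below the limit for measured probe sets. Pfkfb2 and Pfkfb3 had changes between -0.09 and 0.03 on the 2 days. A second tested probe set of Pfkfb2 gave -0.0145 at 2 d and -0.42 at 7 d (adjusted p = 0.983 and 0.221). One of Pfkfb3 gave 0.32 at 2 d and -0.0654 at 7 d (adjusted p = 0.331 and 0.849).

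In the steps from hexose phosphate to triose phosphate, Gpi, the isomerase that starts glycolysis proper, differed from sham by -0.15 and -0.17 with overlapping groups on both days. Aldoa, the muscle aldolase, read 56729, 66481 and 63394 in the sham hearts and 41545, 55723 and 48151 in the IR hearts at 2 d. Its 7 d signals were 49759, 55669 and 64025 in the sham hearts and 44746, 46423.5 and 47667 in the IR hearts. On both days the groups stood apart, and Aldoa fell in the average effect (log2 change -0.32, SE 0.08, adjusted p = 0.0129), although neither day passed alone. With quantile normalization the average for Aldoa was -0.08 and not called (adjusted p = 0.237). Tpi1, triose phosphate isomerase, had 2 d signals of 23331, 23831 and 23277 in the sham hearts and 18464, 23629.6 and 21064 in the IR hearts, with the groups overlapping. At 7 d it read 20787.5, 24304 and 27951 in the sham hearts and 17879, 18759.9 and 18909.7 in the IR hearts. All IR hearts were then below the sham hearts, and Tpi1 fell 1.3-fold (log2 change -0.38, SE 0.12, adjusted p = 0.0464), a call that quantile normalization ended (-0.23, adjusted p = 0.106). Gapdh, which is often used to scale other genes, was read here through 3 control probe sets along its transcript. With these added to the table, its average effect was -0.27 at the 3′ end (adjusted p = 0.0223), -0.38 in the middle (adjusted p = 0.00512) and -0.26 at the 5′ end (adjusted p = 0.017).

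The lower steps of glycolysis held the member with the lowest change on both days, Pgam2, the muscle phosphoglycerate mutase. Its signals at 2 d were 18266, 24939.9 and 21664.5 in the sham hearts and 9279.5, 14935 and 12765 in the IR hearts, with means of 21623 ± 3337 and 12327 ± 2853 (SD, n = 3). The highest IR heart lay below the lowest sham heart, and Pgam2 fell 1.76-fold (log2 change -0.82, SE 0.19, adjusted p = 0.0431). At 7 d the signals were 19509.5, 19165 and 29394 in the sham hearts and 9504, 12863 and 11577 in the IR hearts, with means of 22689 ± 5809 and 11314 ± 1695 (SD, n = 3). Sham replicate 82 was the highest of all arrays, and the 7 d IR and sham groups did not overlap. Pgam2 fell 1.96-fold (log2 change -0.97, SE 0.19, adjusted p = 0.00946). Without replicate 82 the 7 d change was -0.77 (adjusted p = 0.051), and without replicate 69 the 2 d change was -0.63 (adjusted p = 0.225). The average effect was -0.89 (SE 0.14, adjusted p = 0.00152), called in all 22 other settings tried for it.

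Its ubiquitous counterpart Pgam1 read 14788, 10830.1 and 9271 in the sham hearts and 15737, 14518 and 14913 in the IR hearts at 2 d. The groups overlapped through sham replicate 71, and the estimate was above 0 (log2 change 0.39, SE 0.15, adjusted p = 0.138). At 7 d Pgam1 was 15334, 14393 and 12149 in the sham hearts and 14212, 13292 and 14861.5 in the IR hearts, close to level (log2 change 0.02, SE 0.15, adjusted p = 0.936). Eno3, the muscle enolase, had 2 d signals of 7674, 7079.6 and 6501 in the sham hearts and 4513, 4801 and 5844 in the IR hearts. IR hearts were lower without overlap, and the test did not pass (log2 change -0.48, SE 0.23, adjusted p = 0.236). At 7 d Eno3 read 6814, 8539.8 and 8022 in the sham hearts and 2714, 5266 and 6446 in the IR hearts, with replicate 44 lowest. It fell 1.68-fold (log2 change -0.75, SE 0.23, adjusted p = 0.0433), and its average effect was -0.61 (adjusted p = 0.0136). Without replicate 44 the 7 d change of Eno3 was -0.40 and not called (adjusted p = 0.135). For Eno1, the ubiquitous enolase, 2 d signals were 14335, 14118 and 13839 in the sham hearts and 18344, 14469 and 14745.5 in the IR hearts. The IR hearts were higher, replicate 69 most, without a call (log2 change 0.16, SE 0.11, adjusted p = 0.422). The 7 d signals of Eno1 were 12684, 13467 and 14555 in the sham hearts and 12219.9, 12773 and 13136 in the IR hearts and overlapped (log2 change -0.09, SE 0.11, adjusted p = 0.627). Eno2, the neuronal enolase, had its highest estimate at 7 d (log2 change 0.56, SE 0.24, adjusted p = 0.144) with overlapping groups and IR replicate 47 highest, at 1071.5. Of 4 nerve and Schwann cell markers on the array, Nefl and Uchl1 lay below the limit, and S100b and Mbp differed from sham by 0.04 and -0.0040 at 7 d, uncalled. Pgk1, phosphoglycerate kinase, read 17542, 20947 and 19416 in the sham hearts and 16788, 18228 and 13643 in the IR hearts at 2 d and 17649, 20359 and 19579 in the sham hearts and 15076, 16093 and 15375 in the IR hearts at 7 d. It fell in the average effect (log2 change -0.28, SE 0.08, adjusted p = 0.0253), and a second probe set gave -0.09 (adjusted p = 0.457) and quantile normalization -0.15 (adjusted p = 0.16).

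**Figure D2:**
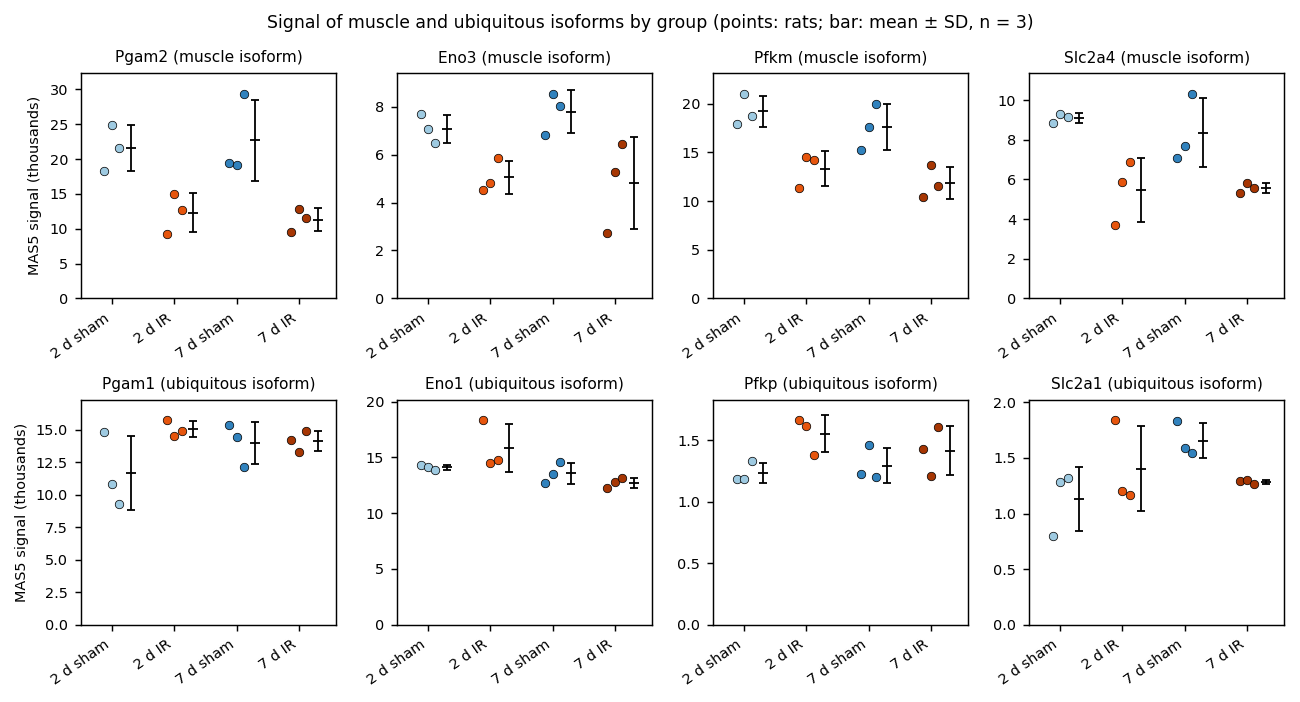
MAS5 signal (linear y axis, from 0, own scale per gene) of 4 muscle isoforms (top) and their ubiquitous counterparts (bottom) in each heart of the 4 groups, with mean ± SD (n = 3). On both days the IR points of Pgam2, Eno3, Pfkm and Slc2a4 lie below the sham points of the same day, while those of Pgam1 overlap them.

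Lactate dehydrogenase is built from an M subunit (Ldha) and an H subunit (Ldhb), the main one of the heart. At 2 d Ldhb read 57675, 63616 and 60115 in the sham hearts and 42090.5, 55189 and 49708 in the IR hearts, and at 7 d 52678, 56381 and 62098 in the sham hearts and 40753, 45609 and 44292 in the IR hearts. On both days the groups stood apart, and Ldhb fell at 7 d (log2 change -0.39, SE 0.11, adjusted p = 0.0297) and on average (-0.35, adjusted p = 0.00529). Quantile normalization ended both calls of Ldhb, with -0.15 at 7 d (adjusted p = 0.111) and -0.11 on average (adjusted p = 0.0656). Ldha signals were 30739, 33484 and 31976 in the sham hearts and 24497, 30068 and 25681 in the IR hearts at 2 d. At 7 d they were 24552, 23911 and 27283 in the sham hearts and 18652, 22843 and 20675 in the IR hearts. Ldha also stood apart on both days and fell on average (log2 change -0.27, SE 0.08, adjusted p = 0.0184), a call lost without 7 d IR replicate 44 (adjusted p = 0.0512) and with quantile normalization (-0.12, adjusted p = 0.177). Its sham hearts at 7 d all lay below those at 2 d (log2 change -0.34, SE 0.11, adjusted p = 0.299), as did its IR hearts (log2 change -0.36, SE 0.11, adjusted p = 0.0803), neither past the threshold. The monocarboxylate transporters, which carry lactate and pyruvate across the cell membrane, were not called. Slc16a1 (MCT1) differed from sham by -0.25 and -0.34 (adjusted p = 0.363 and 0.154). Slc16a3 (MCT4), typical of cells that export lactate, had the highest estimate of all members at 2 d (log2 change 0.60, SE 0.28, adjusted p = 0.223). Its signals were 580.3, 343 and 540.2 in the sham hearts and 1279.8, 618 and 704 in the IR hearts, close to the limit for measured probe sets, with replicate 69 highest.

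Glycogen enzymes were the group with the most calls at 7 d: 5 of 7 fell (Gys1, Pygm, Pygb, Pgm1 and Ugp2), against 0 of 7 at 2 d and 4 of 7 on average, where 12.1%, 2.47% and 22.9% of all probe sets were called in either direction. The medians over the 7 were -0.26 at 2 d, -0.57 at 7 d and -0.42 on average. Over the same arrays the mean log2 level of the cardiomyocyte markers was -0.557, -0.418 and -0.397 from the sham mean on 7 d IR replicates 44, 47 and 48, and its part in these results was not tested. Without sham replicate 82 none of the 5 was called, and without IR replicate 44 Ugp2 alone was.

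Gys1, muscle glycogen synthase, had 2 d signals of 4869.9, 5229 and 4772 in the sham hearts and 2682, 3475 and 3475 in the IR hearts. The groups were apart and the change just missed the threshold (log2 change -0.61, SE 0.16, adjusted p = 0.0518). At 7 d Gys1 read 4087.5, 4213 and 5353 in the sham hearts and 2154, 3095 and 3047 in the IR hearts. It fell 1.61-fold (log2 change -0.69, SE 0.16, adjusted p = 0.0141), and its average effect of -0.65 (adjusted p = 0.00218) was called in all 22 other settings. Pygm, the muscle glycogen phosphorylase, which releases glucose 1-phosphate, read 20134, 21247 and 19596 in the sham hearts and 15071, 15670.0 and 15031 in the IR hearts at 2 d. Its 7 d signals were 14759.7, 19689 and 21080.3 in the sham hearts and 9788, 15322.5 and 11117 in the IR hearts. At 7 d IR replicate 47 lay above sham replicate 80, so the groups overlapped, and Pygm fell 1.53-fold (log2 change -0.62, SE 0.15, adjusted p = 0.0211). Both further probe sets of Pygm gave a 7 d change of -0.44 and -0.42 that did not pass (adjusted p = 0.134 and 0.185). Pygb, the brain phosphorylase, which heart also makes, had signals of 10394, 7423.5 and 9439.6 in the sham hearts and 6379.7, 7202 and 7002 in the IR hearts at 2 d. At 7 d they were 7459.7, 7839 and 10665 in the sham hearts and 4829.8, 7386.5 and 5181 in the IR hearts. The groups were apart on both days, and Pygb fell at 7 d (log2 change -0.57, SE 0.17, adjusted p = 0.0469).

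Pgm1, phosphoglucomutase, which links glycogen to glycolysis, read 9100.5, 9483 and 8837.5 in the sham hearts and 6684, 8552 and 7609.9 in the IR hearts at 2 d. The 7 d signals of Pgm1 were 9543, 7721 and 9255.5 in the sham hearts and 4586.5, 6723 and 6572 in the IR hearts. IR hearts lay below sham hearts on both days, and Pgm1 fell at 7 d (log2 change -0.57, SE 0.15, adjusted p = 0.0244); a second probe set gave -0.36 (adjusted p = 0.124). Ugp2, which makes the UDP-glucose used by glycogen synthase, had overlapping groups at 2 d, with 11250.0, 9222 and 9768 in the sham hearts and 9696, 8965 and 11802 in the IR hearts (log2 difference 0.01, adjusted p = 0.989). At 7 d it read 11295, 13855 and 13534 in the sham hearts and 9874, 7876 and 8981 in the IR hearts, and Ugp2 fell 1.44-fold (log2 change -0.52, SE 0.13, adjusted p = 0.023). The 2 days differed by -0.53 without passing the test of that difference (adjusted p = 0.545). The 7 d sham hearts of Ugp2 were higher than its 2 d sham hearts (0.35, adjusted p = 0.434). With the sham hearts of both days as control its 7 d change was -0.35 and not called (adjusted p = 0.0789). The average effect of Ugp2 was -0.26, also uncalled (adjusted p = 0.0614). Gbe1, the branching enzyme, did not pass at 7 d (log2 change -0.36, SE 0.15, adjusted p = 0.135), and Gyg1, glycogenin, differed from sham by -0.13 and -0.17.

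**Figure D3:**
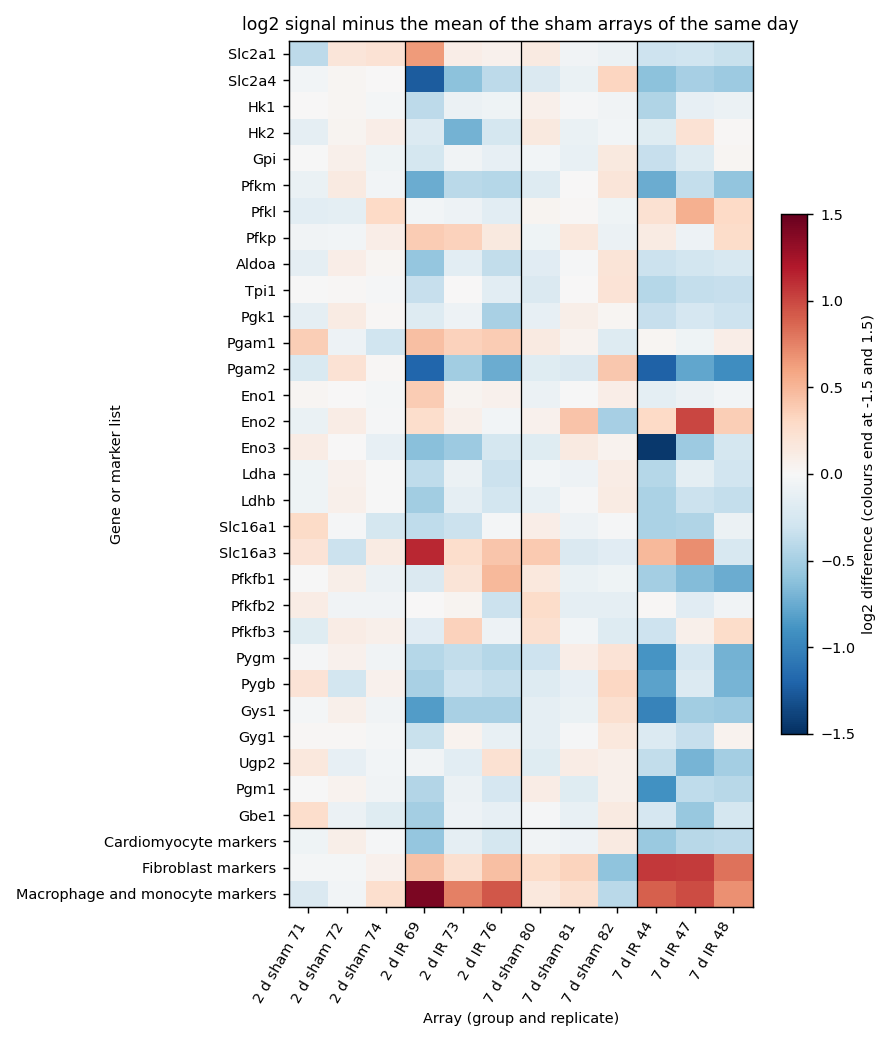
Log2 signal of each tested member and of 3 marker lists on each of the 12 arrays, minus the mean of the sham arrays of the same day (colour, log2 units). Blue bands run through Slc2a4, Pfkm, Pgam2, Eno3, Pygm, Pygb and Gys1 on the IR arrays. Among the IR arrays of the same day, replicate 44 is lowest for all of these genes, and replicate 69 for all but Pygm. Among the 7 d sham arrays, replicate 82 is highest for all of these genes but Eno3.

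The balance of isoforms was compared within each array, as the log2 signal of the first isoform minus that of its counterpart. Pgam2, Eno3, Pfkm and Slc2a4 were each set against a ubiquitous isoform. Of the other pairs, Hk2 minus Hk1 set the insulin-responsive form against the ubiquitous one. Pygm minus Pygb set the muscle against the brain form, and Ldhb minus Ldha the H against the M subunit. The level of such a difference depends on the probes, so that only its shift between groups is read. The 7 pairs were compared by an exact two-sided permutation test of the average IR effect, with labels permuted within each day; 400 assignments exist, the smallest p is 0.005, and p-values were adjusted over the 7 pairs. Within a day, 3 against 3 hearts cannot go below 0.1.

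Pgam2 minus Pgam1 was 0.301, 1.189 and 1.207 in 2 d sham hearts and -0.75, 0.04 and -0.221 in 2 d IR hearts. At 7 d it was 0.344, 0.408 and 1.261 in sham and -0.571, -0.047 and -0.355 in IR hearts. No IR heart reached a sham heart of its day, and the balance shifted by -1.21 at 2 d, -0.995 at 7 d and -1.10 on average (exact p = 0.005, adjusted p = 0.0117). For Eno3 minus Eno1 the values were -0.885, -0.976 and -1.067 in sham and -1.977, -1.554 and -1.307 in IR hearts at 2 d. The 7 d values were -0.878, -0.645 and -0.844 in sham and -2.093, -1.248 and -1.005 in IR hearts. This pair also stood apart on both days, with shifts of -0.64 and -0.66 and an average of -0.65 (exact p = 0.005, adjusted p = 0.0117).

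Pfkm minus Pfkp shifted by -0.82 at 2 d and -0.67 at 7 d, on average by -0.74 (exact p = 0.005, adjusted p = 0.0117). Its mean was 3.76 ± 0.16 in sham and 2.95 ± 0.29 in IR hearts at 2 d, and 3.57 ± 0.24 and 2.90 ± 0.35 at 7 d (SD, n = 3), without overlap on either day. Slc2a4 minus Slc2a1 was 3.179, 2.688 and 2.626 in sham and 0.943, 2.111 and 2.374 in IR hearts at 2 d. At 7 d the values were 1.839, 2.142 and 2.597 in sham and 1.883, 2.004 and 1.983 in IR hearts. The transporters were apart at 2 d (-1.02) and overlapped at 7 d (-0.24), and the average of -0.63 passed (exact p = 0.025, adjusted p = 0.0438). It did not pass when IR replicate 69 was left out (-0.41, exact p = 0.05) or with the second probe set of Slc2a4 (-0.46, exact p = 0.09). Nor did it pass without sham replicates 71, 72, 74 and 82 in turn (exact p = 0.085, 0.07, 0.065 and 0.05). The average shift was then -0.54, -0.66, -0.68 and -0.53, so that without 72 or 74 it was larger than with all arrays. The difference between the days was not tested for the pairs.

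In the remaining 3 pairs the average shift did not pass. It was 0.01 for Hk2 minus Hk1 (exact p = 0.945), made of -0.21 at 2 d with overlapping groups and 0.24 at 7 d with all IR hearts above sham, -0.04 for Pygm minus Pygb (exact p = 0.715) and -0.07 for Ldhb minus Ldha (exact p = 0.08, adjusted p = 0.112). Without 2 d IR replicate 76 the last was -0.09 (exact p = 0.01). The average changes behind them were -0.51 for Pygm and -0.48 for Pygb, beside -0.89 for Pgam2 and 0.21 for Pgam1.

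**Figure D4:**
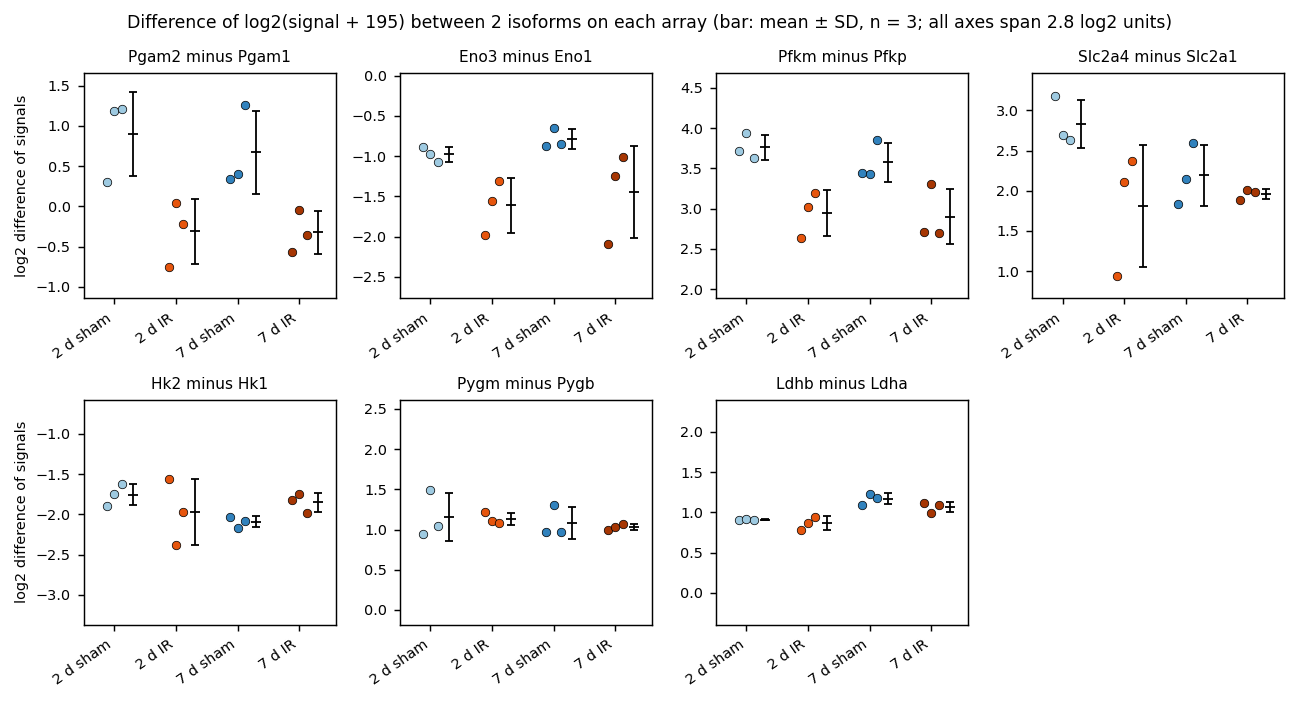
Log2 signal of the first gene minus that of the second on each array for 7 isoform pairs, by group, with mean ± SD (n = 3); every y axis spans 2.8 log2 units. IR points lie below the sham points of the same day for Pgam2 minus Pgam1, Eno3 minus Eno1 and Pfkm minus Pfkp, and the groups overlap on both days for Pygm minus Pygb and Ldhb minus Ldha.

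Because cardiomyocyte markers were lower too, each muscle isoform was also set against the mean of the 15 markers on the same array, a comparison added after the values were seen. Relative to the markers Pgam2 changed by -0.50 on average (exact p = 0.005, adjusted over the 4 genes p = 0.02), by -0.49 at 2 d and -0.52 at 7 d. Left-out arrays moved this value between -0.54 and -0.43. The markers were brighter, with group means of 14.66 to 15.23 log2 units beside 13.48 to 14.45 for Pgam2, and the part of brightness was not tested. Over all settings run, quantile normalization among them, the Pgam2 value lay between -0.61 and -0.40. The shifts were -0.26 for Slc2a4 (exact p = 0.035, adjusted p = 0.0533), -0.15 for Pfkm (exact p = 0.04, adjusted p = 0.0533) and -0.22 for Eno3 (exact p = 0.275), none past the threshold after adjustment. Macrophage and monocyte markers, whose cells also make the ubiquitous isoforms, were higher by a median of 0.99 at 2 d and 0.86 at 7 d; their part in the isoform shifts was not tested.

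No member was called in the test of whether the IR effect differed between 2 d and 7 d, where 0.0095% of all probe sets were called. Pfkfb1, Ugp2, Slc2a1 and Pfkl had an unadjusted p under 0.05, and the lowest adjusted p was 0.545. Between the sham groups of the 2 days (0.076% of all probe sets called, 0.057% higher and 0.019% lower at 7 d) no member was called and 5 had an unadjusted p under 0.05, and between the IR groups (3.45% called, 2.45% higher and 0.997% lower) again 0 were called and 5 had an unadjusted p under 0.05, with a lowest adjusted p of 0.0803 for Ldha. The sham groups stood apart for 6 members (3 higher and 3 lower at 7 d, beside 7.27% and 7.07% of all probe sets). Among IR hearts 3 members were lower at 7 d without overlap (9.91% of all probe sets) and 0 higher (10.6%).

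Other genes of glucose use were read from a list of 48, of which 35 were on the array and 24 were tested. On average over the days 3 were called higher and 3 lower, with a median of 0.05, a share near the 22.9% called among all probe sets (12.4% higher and 10.5% lower). Tkt, the transketolase of the pentose phosphate pathway, rose at 2 d (1.11, SE 0.18, adjusted p = 0.0134) and at 7 d (0.77, adjusted p = 0.0172), and Pgd of the same pathway rose on average (0.44). Pygl, the liver phosphorylase, also found in white blood cells, rose at 7 d (1.08, SE 0.32, adjusted p = 0.0396). Ldhd, the mitochondrial D-lactate dehydrogenase, fell on both days (-0.57 and -0.56, adjusted p = 0.0451 and 0.0204). Phkb, a regulatory subunit of phosphorylase kinase, fell at 7 d (-0.50, adjusted p = 0.0279), and Bsg, the chaperone of the monocarboxylate transporters, fell on average (-0.43). Beside Pygl, the phosphorylases among the members went the other way, as given above for Pygm and Pygb.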

How the data were processed

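Total RNA from 12 rat hearts was read on 1 array each, and groups were taken from sample titles, because the design text repeats 7 d sham and omits 2 d sham. Linear intensity values, 1 for each probe set, were deposited by the authors, who per the submitters' processing notes used MAS5 (version not stated). Each array's mean without 2% at either end was 1500.4 to 1500.5, so arrays had been scaled to a common level; array medians were 637.3 to 719.0. Signals were taken as log2(signal + 195), the median 20th percentile, which understates changes of dim genes. After removing 57 controls from the 15923 probe sets, 10527 passed the limit and were tested. limma 3.58.1 in R 4.3.3 fitted group means over all 12 arrays (eBayes with an intensity trend), with Benjamini-Hochberg adjustment over the 10527, and adjusted p under 0.05 was called. Symbols came from GEO's platform annotation and promoters from RefSeq. The scripts were tested on simulated data. Members with a call, the 8 isoforms and the 5 largest uncalled changes of an IR comparison were named. The members and lists were chosen with earlier results of these data known. Alternatives were the pseudocount, filter, scaling, variance model, weights, control group, probe set and arrays left out. The number of arrays limits the precision.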

Additional observations from a re-analysis of the deposited data

How the results depend on the processing

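No paired analysis was possible because the groups share no replicate numbers. Of 182 comparisons of a pair or marker shift with its value under another setting, 144 kept the direction and the side of the threshold. Here the threshold was an unadjusted exact p under 0.05. By it Slc2a4 and Pfkm against the cardiomyocyte markers passed (exact p = 0.035 and 0.04), which they did not after adjustment (0.0533 for both). Of 186 counts of called members 158 stayed within 1.5 times the reported count, which does not mean that the same members were called. These include the comparisons in which no member was called, where the count was 0 or 1. In the IR comparisons 15 of 32 counts stayed within that limit at 2 d, 24 of 32 at 7 d and 28 of 30 on average. Members called at 2 d numbered 0 with no filter, 0 without the intensity trend, 0 without replicates 69 and 82 together, 1 with quantile normalization, 1 with the other Slc2a4 probe set, 4 with a filter on the mean, 4 with the sham hearts of both days as control, and 0 to 6 with an array left out. At 7 d they numbered 6 with no filter, 6 from the compared groups alone, 2 without both replicates, and 0 to 12 with an array left out. For the average they numbered 8 with quantile normalization, which leaves Aldoa at -0.08, 6 without both replicates, and 10 to 15 with an array left out. Between the IR days, 1 was called without both replicates. Gys1, Pfkm, Pgam2, Pygm and Slc2a4 kept their average call in all 22 settings. The cause of these changes was not tested.

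Left-out arrays put the average pair shifts between -1.25 and -0.95 for Pgam2 minus Pgam1, -0.76 and -0.49 for Eno3 minus Eno1, -0.84 and -0.67 for Pfkm minus Pfkp, -0.77 and -0.41 for Slc2a4 minus Slc2a1, -0.0896 and 0.11 for Hk2 minus Hk1, -0.0911 and 0.0469 for Pygm minus Pygb, and -0.094 and -0.0512 for Ldhb minus Ldha. The first 3 passed before adjustment in every setting run. Slc2a4 minus Slc2a1 was -0.31 without both replicates (exact p = 0.1) and -0.46 with the other probe set (exact p = 0.09). Signs turned, uncalled, for Hk2 minus Hk1 (-0.0050 and -0.0098 at pseudocounts 50 and 16, -0.06 with quantile normalization, -0.0867 without both), Pygm minus Pygb (0.0429 with quantile normalization, 0.0302 and 0.0602 with the other Pygm probe sets) and Ldhb minus Ldha (0.0026 with quantile normalization). Against the cardiomyocyte markers, left-out arrays gave -0.54 to -0.43 for Pgam2, -0.33 to -0.07 for Eno3, -0.19 to -0.13 for Pfkm and -0.33 to -0.20 for Slc2a4. Eno3 passed before adjustment with quantile normalization (-0.40, exact p = 0.015). Without both replicates Pfkm was -0.14 (exact p = 0.12) and Slc2a4 -0.15 (exact p = 0.08), and with their other probe sets -0.17 (exact p = 0.225) and -0.0955 (exact p = 0.365).

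Uncalled estimates also changed sign. Pgk1 at 2 d was 0.0596 with its other probe set. Ugp2 at 2 d was -0.0502 with median centring, -0.17 with both sham groups and -0.11 to 0.0892 with an array left out. Pgam1 at 7 d was -0.0169 with median centring, -0.0016 with weights and -0.0736 without both replicates, with left-out arrays giving -0.0736 to 0.0919. Eno1 on average was -0.0136 with median centring, and -0.0204 to 0.0642 with an array left out, lowest without replicate 69. Slc2a1 on average ran from -0.12 to 0.0287 with an array left out.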
